A study of Homo sapiens with 9 samples.

Results

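LY96, CD14 and CD180 encode 3 proteins that help Toll-like receptors at the cell surface, and their RNA levels are described here in HL-60 clone 15 cells, 3 genes of the 14778 named genes measured. Each gene was followed at its named probe set with the highest mean over the 9 arrays, and each had 1 named probe set (17070061 for LY96, 17000793 for CD14 and 16996813 for CD180). The members were chosen by their log2 values across these 9 arrays, which differed between the groups, so their levels and fold changes are given as a description, without a test. HL-60 is an established human promyelocytic leukaemia line, and its clone 15 is a variant that can be driven towards eosinophils. The 9 arrays fall into 3 groups of 3: cells transduced with an inducible lentiviral RhoH construct and given 100 nM 4-hydroxytamoxifen (4-OHT), here called induced RhoH; the same RhoH cells without 4-OHT, called uninduced RhoH; and cells transduced with a GFP construct and given 100 nM 4-OHT, called GFP. RhoH is a small GTP-binding protein of blood cells, GFP is a fluorescent control protein, and 4-OHT, an active metabolite of tamoxifen, switches the constructs on. All 3 groups carried a lentiviral construct in the same clone, and no GFP group without 4-OHT was analysed here, so effects of 4-OHT itself, of the transduced population and of RhoH cannot be told apart in every comparison. Each group is described as 3 biological replicates, without saying how the cultures were separated.

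Toll-like receptor 4 senses bacterial lipopolysaccharide (LPS) only with help. LPS-binding protein extracts LPS from membranes, CD14 takes it up and hands it on, and MD-2, the product of LY96, holds its lipid part in a pocket while bound to the outer part of the receptor. CD14 is a leucine-rich repeat protein with a lipid anchor or in soluble form, also serves TLR2, and is a classic surface marker of monocytes. CD180, also called RP105, has an outer part like that of TLR4 but no TIR signalling domain, and pairs with MD-1, the product of LY86. In mouse myeloid cells the CD180 and MD-1 pair restrains LPS signalling through TLR4, and in B cells CD180 signals through the kinase LYN.

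The values are log2 expression from RMA, so a difference of 1 is a doubling of signal, and differences between dim signals are understated. Pearson correlations between the arrays of a group, taken over probe sets that are not independent of each other, were 0.974 to 0.983 for induced RhoH, 0.980 to 0.995 for uninduced RhoH and 0.995 to 0.996 for GFP. Deviations from the group means were widest on induced RhoH replicates 1 and 3 and uninduced RhoH replicate 1 (SD 0.200 to 0.206 over probe sets, against 0.090 to 0.162 on the other 6 arrays). RHOH itself averaged 5.59 ± 0.14 in the arrays labelled induced RhoH, 5.21 ± 0.06 in those labelled uninduced RhoH and 5.93 ± 0.02 in those labelled GFP (SD, n = 3 each). The arrays labelled GFP thus had the highest RHOH signal, and all directions below are those of the arrays as labelled. Whether the RHOH probe set reads the construct's RNA in full, in part or not at all is not known. Whether sample labels were exchanged was not tested either, and an exchange would change the directions given here.

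LY96 was highest in induced RhoH cells and lowest in uninduced RhoH cells. Its log2 values were 6.99, 6.17 and 6.44 on the 3 induced RhoH arrays, 4.32, 4.72 and 4.56 on the uninduced RhoH arrays, and 5.38, 5.37 and 5.37 on the GFP arrays. The 3 groups did not overlap: every induced array was above every GFP array, and every GFP array above every uninduced array. Group means were 6.53 ± 0.42 in induced RhoH, 4.53 ± 0.20 in uninduced RhoH and 5.38 ± 0.0056 in GFP cells (SD, n = 3 each). The difference between induced and uninduced RhoH cells was 2.00 on the log2 scale (SE of the fit 0.18), or 4.00-fold, the 15th highest of the 14778 genes. Against GFP cells LY96 was 2.23-fold higher in induced RhoH cells (log2 fold change 1.16, SE 0.18), rank 23 from the highest. It was 1.79-fold lower in uninduced RhoH than in GFP cells (log2 fold change -0.84, SE 0.18).

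For comparison with all genes, arrays of induced RhoH lay wholly above those of uninduced RhoH for 8.9% and wholly below for 5.64% (14.5% either way), as LY96 and CD180 lay above. Against GFP, induced RhoH lay above for 11.1% (LY96 and CD180) and below for 11.4% (CD14), 22.5% either way, and uninduced RhoH lay above for 19.2% (none of the 3) and below for 18.1% (LY96 and CD14), 37.3% either way. Uninduced RhoH lay below all 6 other arrays for 7.23% of genes, among them LY96. Complete separation in the order of LY96, with uninduced RhoH lowest and induced RhoH highest, was seen for 35 genes (0.237%). The arrays of induced RhoH lay above all 6 others for 200 genes (1.35%). As replicate 1 gave both the highest induced and the lowest uninduced value of LY96, the log2 fold change was 1.67 without both replicate 1 arrays. Left out one at a time, the 9 arrays gave 1.77 to 2.18. The very small SD in GFP cells includes 2 arrays with the same deposited value, which occurred in at least 2 of the 3 GFP arrays at 11.9% of all probe sets. LY96 sat between percentiles 12.1 and 18.9 of the named genes on the uninduced arrays, in the dim part of the scale.

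**Figure D1:**
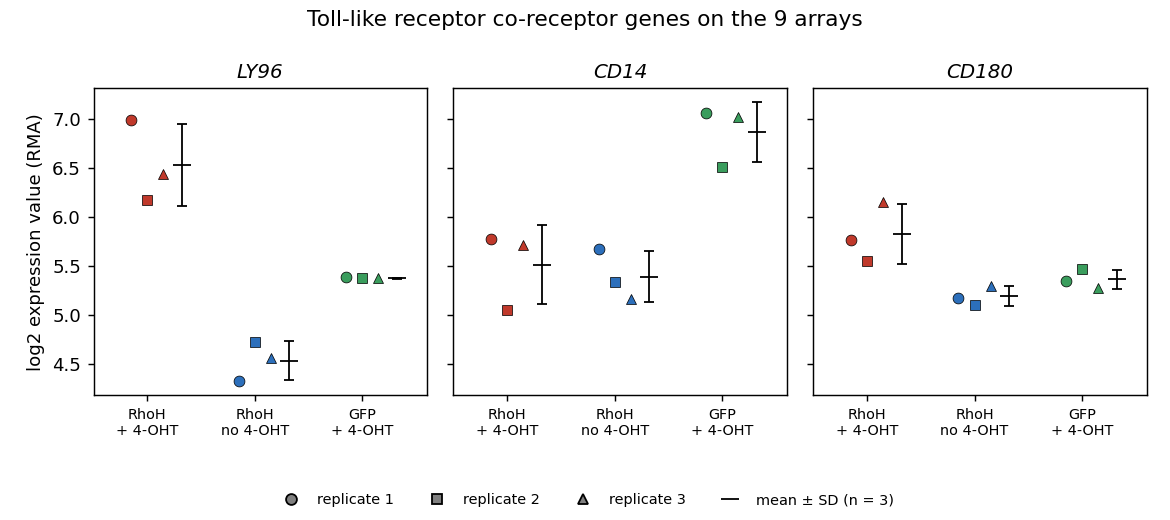
Log2 expression values (RMA) of LY96, CD14 and CD180 on each of the 9 arrays, with group mean ± SD (n = 3) beside the points. LY96 separates all 3 groups with induced RhoH highest, CD14 is highest on the 3 GFP arrays (6.51 to 7.06), and CD180 is highest on the 3 induced RhoH arrays (5.55 to 6.15).

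CD14 was highest in GFP cells and overlapped between the RhoH groups. Its log2 values were 5.77, 5.05 and 5.71 on the induced RhoH arrays, 5.67, 5.34 and 5.16 on the uninduced RhoH arrays, and 7.06, 6.51 and 7.01 on the GFP arrays. The 2 RhoH groups overlapped, and all 3 GFP arrays were above all 6 RhoH arrays, a pattern seen for 1437 genes (9.72%). Group means were 5.51 ± 0.40 in induced RhoH, 5.39 ± 0.26 in uninduced RhoH and 6.86 ± 0.31 in GFP cells (SD, n = 3 each). CD14 was 2.55-fold lower in induced RhoH than in GFP cells (log2 fold change -1.35, SE 0.22), rank 45 from the lowest of 14778 genes. It was 2.77-fold lower in uninduced RhoH than in GFP cells (log2 fold change -1.47, SE 0.22). Both differences rest on the same 3 GFP arrays. Between induced and uninduced RhoH cells it differed by 0.12 (SE 0.22), less than the SD within either group, and leaving out 1 array at a time gave -0.0073 to 0.35.

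CD180 was highest in induced RhoH cells, by a smaller step than LY96. Its log2 values were 5.77, 5.55 and 6.15 on the induced RhoH arrays, 5.17, 5.10 and 5.30 on the uninduced RhoH arrays, and 5.35, 5.47 and 5.27 on the GFP arrays. Every induced array was above all 6 others, while the uninduced and GFP arrays overlapped. Group means were 5.82 ± 0.31 in induced RhoH, 5.19 ± 0.10 in uninduced RhoH and 5.36 ± 0.10 in GFP cells (SD, n = 3 each). CD180 was 1.55-fold higher in induced than in uninduced RhoH cells (log2 fold change 0.63, SE 0.14) and 1.37-fold higher in induced RhoH than in GFP cells (0.46, SE 0.14). The gap to the nearest GFP array was under 0.1 log2 units for induced replicate 2. With array weights, which give induced replicates 1 and 3 less say, the first difference was 0.43. Uninduced RhoH and GFP cells differed by -0.17 (SE 0.14). In uninduced RhoH cells CD180 lay between percentiles 24.4 and 28.0 of the named genes on each array.

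The stretches just upstream of CD14 and CD180 are printed because the 2 genes were high in different groups while JUN, a subunit of the AP-1 factor, and SPI1, which encodes the myeloid factor PU.1, were measured on the same arrays. Each holds the 250 bases before the annotated start on the minus strand of GRCh38.p14, from RefSeq: chr5:140633176-140633425 for CD14 and chr5:67196800-67197049 for CD180. Capitals mark matches on either strand to AGGAAG, a PU.1-type ETS core, and to TGANTCA, the AP-1 element.
CD14: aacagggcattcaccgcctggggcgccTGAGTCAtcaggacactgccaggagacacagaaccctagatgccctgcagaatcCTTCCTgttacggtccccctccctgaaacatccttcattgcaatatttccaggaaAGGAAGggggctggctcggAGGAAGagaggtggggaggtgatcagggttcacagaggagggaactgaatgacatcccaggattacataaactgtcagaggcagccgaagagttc
CD180: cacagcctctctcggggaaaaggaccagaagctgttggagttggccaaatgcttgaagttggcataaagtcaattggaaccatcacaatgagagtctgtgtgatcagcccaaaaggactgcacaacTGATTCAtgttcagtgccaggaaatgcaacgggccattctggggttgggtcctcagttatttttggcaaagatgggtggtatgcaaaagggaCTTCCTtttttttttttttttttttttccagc
CD14 had 3 matches to AGGAAG, at -169 to -164 on the opposite strand and at -114 to -109 and -95 to -90, and 1 match to TGANTCA at -223 to -217, counted from the start. CD180 had 1 match to AGGAAG on the opposite strand at -32 to -27 and 1 to TGANTCA at -124 to -118. None of these matches overlapped. Of 35116 promoter windows of the same length, 28.7% held AGGAAG and 6.57% held TGANTCA. The letters TTGCNNAA, 1 form of the C/EBP element, matched once in CD180 and not in CD14 (9.05% of all windows). The CD14 stretch holds ttgcaata, which misses that pattern by 1 letter. Other forms were not searched, so a lack of a C/EBP element in CD14 was not shown. The GC box GGGCGG matched in neither (42.6% of all windows). The motifs were picked with the sequences in view, and a match is a stretch of letters, not a measured binding site.

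The 3 genes thus had 3 patterns over the same 9 arrays. After each gene was centred on its own mean, LY96 and CD180 differed by a root mean square of 0.61 log2 units per array, CD14 and CD180 by 0.81, and LY96 and CD14 by 1.10. The median difference from all named genes was 0.86 for LY96 and 0.75 for CD14, so CD14 was farther from both LY96 and CD180 than from the median gene. No such median was taken for CD180, so whether LY96 was near it by that measure was not tested. The measure also depends on how widely a gene varied, not on pattern alone. The range over the 9 arrays was 2.67 log2 units for LY96, 2.01 for CD14 and 1.06 for CD180, at percentiles 99.6, 98.8 and 89.9 of the ranges of all named genes. Within RhoH cells the difference between same-numbered induced and uninduced arrays was 2.67, 1.45 and 1.88 for LY96 in replicates 1, 2 and 3, and 0.59, 0.45 and 0.85 for CD180. For CD14 it was 0.10, -0.28 and 0.55, with both signs.

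The genes closest in pattern were ranked by the same root mean square difference over the 9 arrays. For LY96 the 5 closest were GPR65, a proton-sensing receptor (0.33), the SLAM family receptors SLAMF6 (0.33) and CD84 (0.36), the adaptor STAP1 (0.39) and the transcription factor GATA2 (0.43). On the log2 scale GPR65 averaged 7.26 in induced RhoH, 5.94 in uninduced RhoH and 6.62 in GFP cells, and SLAMF6 averaged 7.74 in induced RhoH, 6.29 in uninduced RhoH and 7.12 in GFP cells. For CD14 they were EFR3B (0.19), RANBP17 (0.22), ETNK2 of ethanolamine phosphorylation (0.25), the pyrin gene MEFV (0.28) and the VEGF receptor gene FLT1 (0.28). MEFV, an inflammasome sensor of myeloid cells, averaged 5.16 in induced RhoH, 5.10 in uninduced RhoH and 6.39 in GFP cells. For CD180 they were TMEM14A (0.10), the calcium channel gene ORAI3 (0.11), the read-through transcript APOC4-APOC2 (0.11), the transcription factor TOX (0.12) and the sulphurtransferase gene TST (0.12). CD180 also had the smallest range of the 3 genes.

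**Figure D2:**
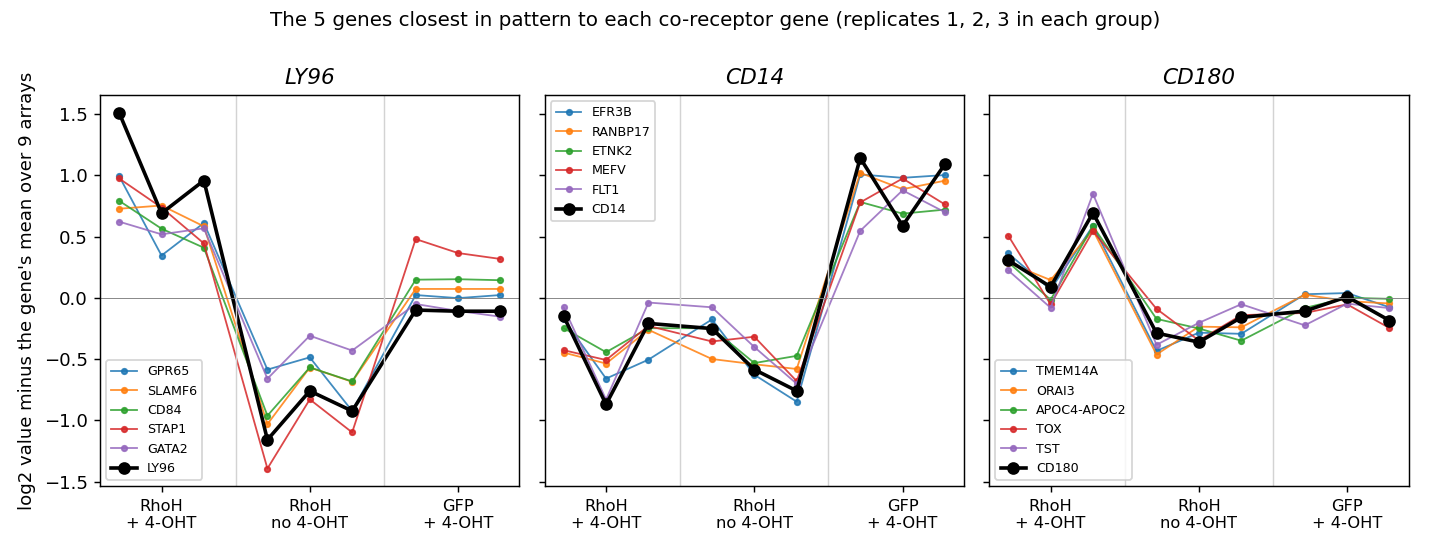
Log2 values of LY96, CD14 and CD180 (black) and of the 5 genes closest in pattern to each, every gene minus its mean over the 9 arrays, with replicates 1, 2 and 3 in order within each group. The LY96 panel is lowest in uninduced RhoH, the CD14 panel is highest in GFP, and the CD180 panel peaks at replicate 3 of induced RhoH (6.15 before centring for CD180).

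TLR4 and LY86, whose products bind MD-2 and CD180, overlapped between all groups. Over all genes, arrays did not overlap for 14.5% (induced against uninduced RhoH), 22.5% (induced RhoH against GFP) and 37.3% (uninduced RhoH against GFP). LY96 and CD180 were chosen by values that differed between groups, so their contrast with these partners was fixed in advance. TLR4, which needs MD-2 to sense LPS, had log2 values of 8.76, 8.84 and 9.13 on the induced RhoH arrays, 8.62, 8.92 and 8.88 on the uninduced RhoH arrays, and 8.84, 8.81 and 8.85 on the GFP arrays. All 3 groups overlapped, with fold changes on the log2 scale of 0.11 for induced against uninduced RhoH (limma adjusted p = 0.812), 0.08 for induced RhoH against GFP (adjusted p = 0.792) and -0.03 for uninduced RhoH against GFP (adjusted p = 0.909). LY86, which encodes the MD-1 partner of CD180, had 6.06, 5.87 and 6.11 on the induced RhoH arrays, 6.32, 5.95 and 5.81 on the uninduced RhoH arrays, and 6.02, 6.15 and 6.01 on the GFP arrays. Its groups overlapped as well, with log2 fold changes of -0.01, -0.05 and -0.04 in the 3 comparisons in the same order (adjusted p = 0.984, 0.891 and 0.893). These p-values do not show that the levels were equal.

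TLR1 and TLR6, which pair with TLR2 to sense bacterial lipoproteins, were lowest in uninduced RhoH cells, as LY96 was, but highest in GFP cells. TLR6 had 6.02 on each of the 3 induced RhoH arrays, 4.42, 4.20 and 4.83 on the uninduced RhoH arrays, and 7.20, 7.24 and 7.11 on the GFP arrays. The 3 induced RhoH arrays held the same deposited TLR6 value (SD 0), and this enters the spread of the fit. At least 2 of these 3 arrays held equal values at 8.33% of all probe sets. TLR6 rose with induction by 1.54 on the log2 scale (limma adjusted p = 0.000274) and was lower in induced RhoH than in GFP cells (-1.16, adjusted p = 0.00134). TLR1 rose with induction by 1.13 (adjusted p = 0.00104) and was lower in induced RhoH than in GFP cells (-0.82, adjusted p = 0.00608). TLR2, the receptor that CD14 also serves, had -0.10 for induced against uninduced RhoH (adjusted p = 0.880) and -0.07 for induced RhoH against GFP (adjusted p = 0.861). TLR9, an endosomal sensor of CpG DNA, was the only other Toll-like receptor whose arrays separated in the order of LY96, at 7.75 ± 0.15 in induced RhoH, 7.29 ± 0.20 in uninduced RhoH and 7.47 ± 0.0032 in GFP cells (SD, n = 3 each), and it did not pass the test with induction (0.47, adjusted p = 0.0609).

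**Figure D3:**
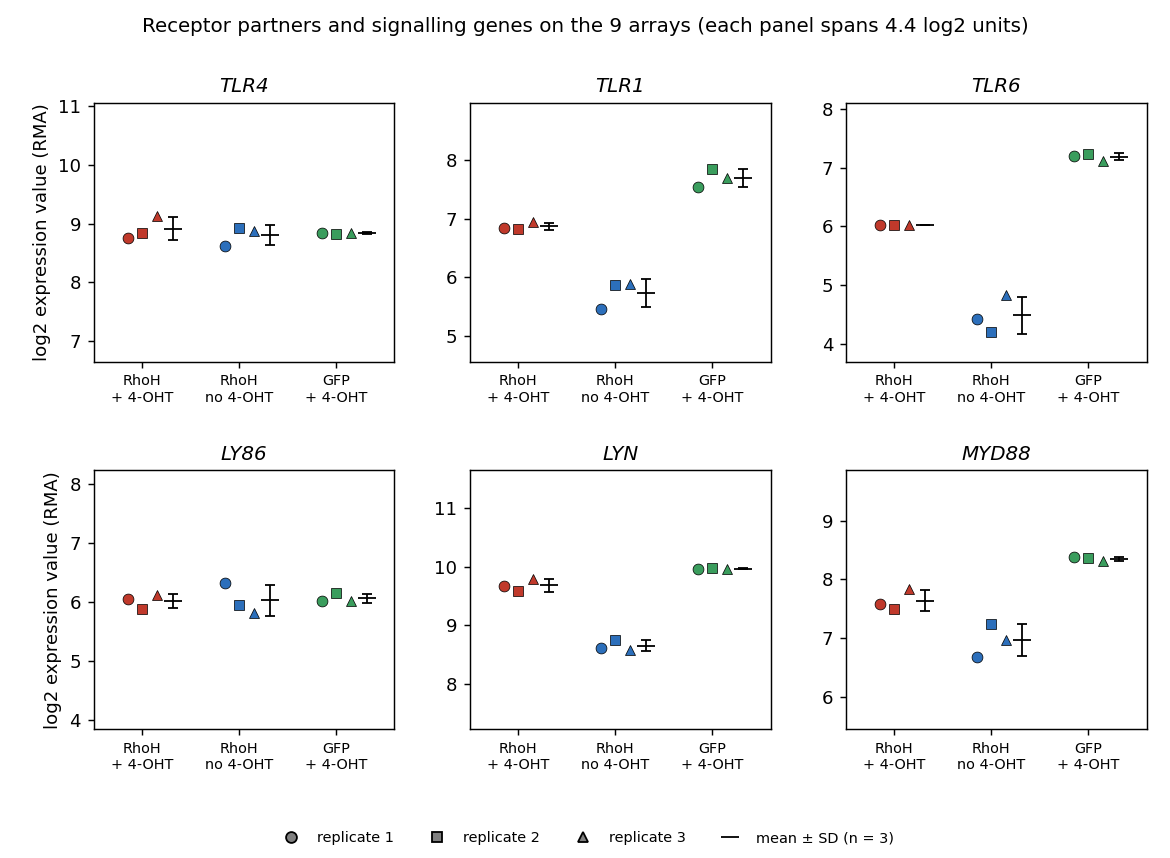
Log2 expression values (RMA) of TLR4, TLR1, TLR6, LY86, LYN and MYD88 on each of the 9 arrays with group mean ± SD (n = 3); each panel spans the same height in log2 units. TLR4 and LY86 overlap in all groups, while TLR1, TLR6, LYN and MYD88 are lowest in uninduced RhoH and highest in GFP cells.

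Around the 3 genes, 93 symbols of the Toll-like receptor pathway were listed by role in 7 lists, and 68 of them were measured as named genes. With induction 9 of the 68 (13.2%) passed a limma adjusted p of 0.05 over all genes, 7 higher and 2 lower, where 3.78% of all genes passed (3.02% higher and 0.751% lower). Induced RhoH against GFP gave 13 of 68 (19.1%), 1 higher and 12 lower, against 4.49% of all genes (1.74% higher, 2.75% lower). Uninduced RhoH against GFP gave 28 of 68 (41.2%), 4 higher and 24 lower, against 15.3% of all genes (6.01% higher and 9.27% lower). The 3 comparisons share samples in pairs, so these counts are not independent of each other. The median log2 fold change of the pathway genes was 0.10 with induction (-0.0043 over all genes), -0.09 for induced RhoH against GFP (0.03 over all genes) and -0.15 for uninduced RhoH against GFP (0.05 over all genes). LY96 and CD180, at 1.16 and 0.46 for induced RhoH against GFP, had the opposite sign to 12 of the 13 pathway genes called there, and CD14, at -1.35, had their sign. The induction count was 5 without uninduced RhoH replicate 3 or without GFP replicate 3. The count against GFP was 8, 7 and 6 without GFP replicates 1, 2 and 3, and the count of 28 was 18 without GFP replicate 2.

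**Figure D4:**
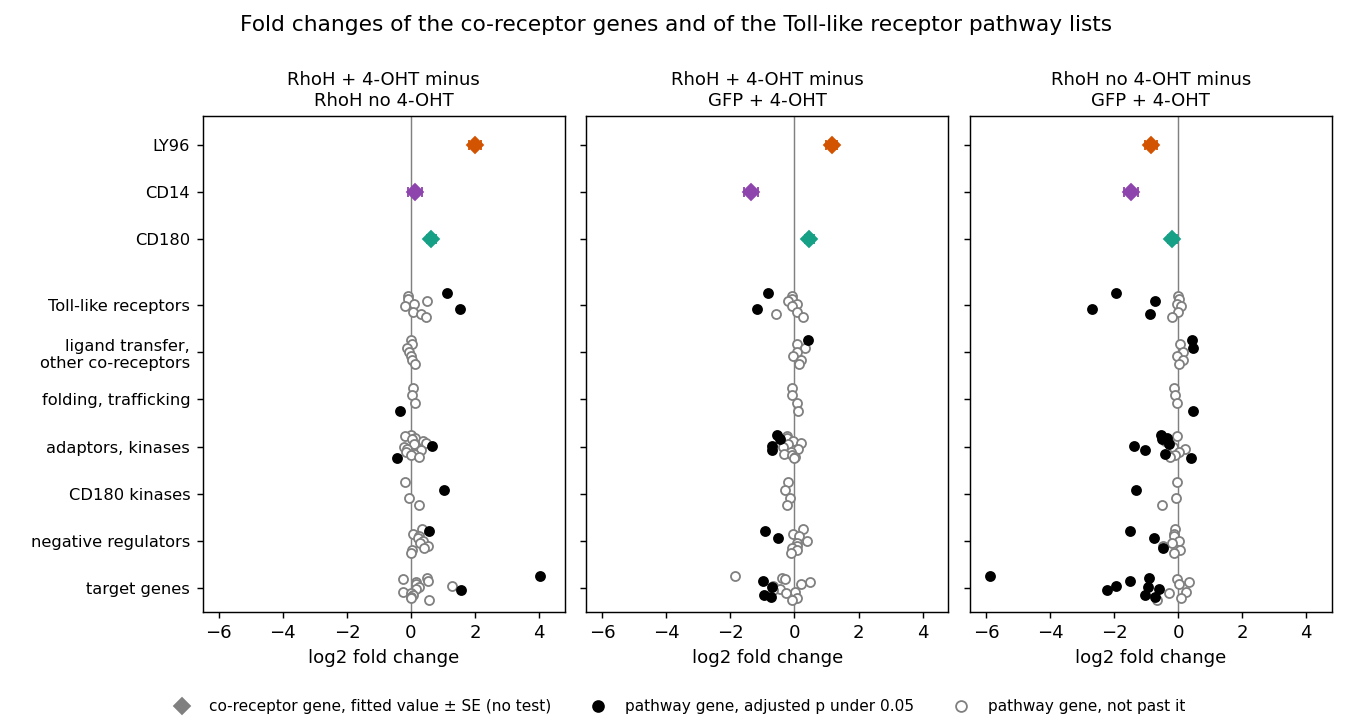
Log2 fold changes in the 3 comparisons for LY96, CD14 and CD180 (diamonds, fitted value ± SE, no test) and for each measured gene of the 7 pathway lists (circles, filled where the limma adjusted p was under 0.05). LY96 and CD180 lie right of 0 in both comparisons of induced RhoH and CD14 lies left of 0 against GFP, where 12 of the 13 filled circles of the middle panel also lie.

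Among the proteins that deliver ligands or act as further co-receptors, 7 of 9 were measured and 0 passed limma with induction (0 also at an unadjusted p under 0.05). Over all genes 3.78% passed with induction. BPI, a granule protein that binds LPS, was higher in RhoH than in GFP cells, by 0.43 in induced RhoH (adjusted p = 0.0477) and 0.44 in uninduced RhoH (adjusted p = 0.0182). The first call was lost in 9 of 18 alternatives, among them the omission of any GFP array or of replicate 2 or 3 of either RhoH group, with adjusted p up to 0.175. The second was lost without any GFP array or without uninduced RhoH replicate 2 or 3 (up to 0.0733). LBP, which passes LPS to CD14, was at -0.06 with induction (adjusted p = 0.867) and 0.08 for induced RhoH against GFP (adjusted p = 0.699). CD36, a co-receptor for TLR2 with TLR6, was at 0.02 and 0.09 in the same comparisons (adjusted p = 0.964 and 0.610). Of 4 measured folding and trafficking genes, UNC93B1, which escorts endosomal receptors, fell with induction (-0.34, adjusted p = 0.0396), as did 0.751% of all genes. UNC93B1 was higher in uninduced RhoH than in GFP cells (0.45, adjusted p = 0.00297), as were 6.01% of all genes. Its induction call was kept without induced RhoH replicate 3 and lost without any 1 of the other 8 arrays (adjusted p = 0.0692 to 0.148). CNPY3, a chaperone needed for surface TLR4, was at 0.05 with induction (adjusted p = 0.911).

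Of the kinases through which CD180 signals in B cells, 4 of 6 were measured. LYN rose with induction, to 9.67, 9.58 and 9.80 on the induced RhoH arrays, against 8.62, 8.76 and 8.59 on the uninduced RhoH arrays (log2 fold change 1.03, limma adjusted p = 0.000186). The groups did not overlap, and this call held in all 18 alternatives. On the GFP arrays LYN was at 9.97, 9.98 and 9.95, above both RhoH groups, and the difference of uninduced RhoH from GFP was -1.31 (adjusted p = 7.12e-06). For induced RhoH against GFP it was -0.28 (adjusted p = 0.120). BTK was at -0.18 with induction (adjusted p = 0.641), SYK at -0.08 (adjusted p = 0.864) and VAV1 at 0.26 (adjusted p = 0.568).

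Of 16 measured adaptors and signalling kinases, 1 rose and 1 fell with induction, and in RhoH cells 4 were lower against GFP with 4-OHT, and without it 7 were lower and 1 (TRAF3) higher. Over all genes 3.02% rose and 0.751% fell with induction, 2.75% were lower in induced RhoH than in GFP cells, and 9.27% were lower and 6.01% higher in uninduced RhoH than in GFP cells. MYD88, the adaptor of most Toll-like receptors, was at 7.58, 7.50 and 7.84 on the induced RhoH arrays, 6.69, 7.24 and 6.98 on the uninduced RhoH arrays, and 8.38, 8.36 and 8.31 on the GFP arrays, with no overlap between groups. It rose with induction (0.67, adjusted p = 0.0280), was lower in induced RhoH than in GFP cells (-0.71, adjusted p = 0.0193) and lower still in uninduced RhoH cells (-1.38, adjusted p = 0.000113). Of the 9 single arrays left out, the induction call of MYD88 was kept without induced RhoH replicate 2 or uninduced RhoH replicate 2 and lost without any other (adjusted p = 0.0575 to 0.0944). Its call for induced RhoH against GFP was lost without any GFP array or without induced RhoH replicate 1 or 2 (up to 0.0892). TAB2, which links TRAF6 to the kinase TAK1, was lower than in GFP cells in both induced (-0.71, adjusted p = 0.00125) and uninduced RhoH cells (-1.03, adjusted p = 2.57e-05). TRAF3, which directs signals to the interferon arm, fell with induction (-0.43, adjusted p = 0.0491), and that call was kept without induced RhoH replicate 2 or uninduced RhoH replicate 1 and lost without any other array (adjusted p = 0.0901 to 0.181). Its call for uninduced RhoH against GFP (0.41, adjusted p = 0.0234) was lost without any GFP array or without uninduced RhoH replicate 2 or 3 (up to 0.0992). TIRAP and TICAM1, adaptors that TLR4 itself uses, were at 0.26 (adjusted p = 0.267) and 0.01 (adjusted p = 0.977) with induction.

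CD180 is itself described as a brake on LPS signalling in mouse myeloid cells, and 11 of 16 other negative regulators were measured. With induction 1 rose (3.02% of all genes), CYLD, which removes ubiquitin chains from signalling proteins (0.58, limma adjusted p = 0.0225). That call was lost without GFP replicate 3, induced RhoH replicate 1 or 2, or uninduced RhoH replicate 3 (adjusted p = 0.0510 to 0.0642). CYLD was lower in induced RhoH than in GFP cells (-0.93, adjusted p = 0.00154), unlike CD180. IRAK3, an inactive kinase of the IRAK family that limits signalling, was at 10.55 ± 0.12 in induced RhoH, 10.31 ± 0.20 in uninduced RhoH and 11.06 ± 0.014 in GFP cells (SD, n = 3 each), lower in uninduced RhoH than in GFP cells (-0.75, adjusted p = 0.00112). NRROS, a leucine-rich repeat protein, was the other pathway gene besides TLR9 with all induced RhoH arrays above the other 6, at 8.61 ± 0.20 in induced RhoH, 8.24 ± 0.05 in uninduced RhoH and 8.21 ± 0.08 in GFP cells, and it did not pass with induction (0.37, adjusted p = 0.102).

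Of 16 measured target genes of Toll-like receptor signalling, 2 rose with induction and 0 fell (3.02% and 0.751% of all genes). They were the monocyte chemoattractant CCL2 (4.02, limma adjusted p = 0.000984) and the interferon regulatory factor IRF1 (1.57, adjusted p = 0.00551). Against GFP cells none was higher in induced RhoH cells and 4 were lower (2.75% of all genes), while CCL2 just missed the threshold (-1.85, adjusted p = 0.0504). Among the 4 were the adhesion molecule ICAM1 (-0.69, adjusted p = 0.00431) and the NF-kB subunit REL (-0.72, adjusted p = 0.00355), both called in all 18 alternatives. The others were CCL4 (-0.97, adjusted p = 0.0318) and PTGS2 (-0.94, adjusted p = 0.0417). The CCL4 call was lost in 9 of the 17 alternatives that held the gene, and the PTGS2 call in 12 of 18. Without 4-OHT 9 of the 16 were lower in RhoH than in GFP cells (9.27% of all genes), with a median of -0.68 over the list and 0.05 over all genes. CCL2, CCL4, CXCL8, ICAM1 and IRF1 all separated the 3 groups with uninduced RhoH lowest and GFP highest, as did 565 genes in all (3.82%). None of the 3 co-receptor genes had that order. TNF, read by the brightest of its 8 probe sets, was at 8.32 ± 0.54 in induced RhoH, 7.77 ± 0.14 in uninduced RhoH and 8.41 ± 0.68 in GFP cells (SD, n = 3 each) and passed in no comparison (adjusted p = 0.262 to 0.922).

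Of 8 measured myeloid transcription factor genes 1 rose with induction, JUN (3.60, limma adjusted p = 3.99e-05), where 3.02% of all genes rose. SPI1, which encodes PU.1, was at 9.17 ± 0.07 in induced RhoH, 9.07 ± 0.11 in uninduced RhoH and 9.29 ± 0.02 in GFP cells (SD, n = 3 each) and passed in no comparison (adjusted p = 0.137 to 0.706). The GFP arrays of SPI1 (9.26 to 9.30) still lay above all 6 RhoH arrays (at most 9.24), as for 9.72% of all genes. JUN was lower in uninduced RhoH than in GFP cells (-4.27, adjusted p = 2.78e-06) and at -0.67 for induced RhoH against GFP (adjusted p = 0.182). In bulk samples fewer cells of a type and less RNA per cell cannot be told apart.

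Markers of cell types known to carry CD14 or CD180 were read on the same arrays. Of 15 monocyte and macrophage markers, 11 were measured, and their mean log2 value per array was 6.95 to 7.19 in induced RhoH, 6.71 to 6.83 in uninduced RhoH and 7.14 to 7.21 in GFP cells. With induction CD86, a co-stimulatory ligand (2.07, limma adjusted p = 0.000108), and the lysosomal protein CD68 (1.11, adjusted p = 0.000834) rose (3.02% of all genes), whereas CD14 was at 0.12. The other 9 markers did not pass, and the median over the list was 0.025, against -0.0043 over all genes. The arrays of 3 markers, CD86, CD68 and CSF1R, lay wholly higher with induction (8.9% of all genes) and those of 2 wholly lower (5.64% of all genes). These 2 were LYZ, the lysozyme gene, at -0.11 (adjusted p = 0.660) and CX3CR1, the fractalkine receptor gene, at -0.19 (adjusted p = 0.339). Against GFP cells 0 of the 11 passed limma in induced RhoH (4 at an unadjusted p under 0.05), where CD14 was at -1.35 and 4.49% of all genes passed. The arrays of 3 markers lay wholly lower there (11.4% of all genes) and those of 2 wholly higher (11.1%). The list median was -0.0084, against 0.03 over all genes. In uninduced RhoH cells CD86 (-2.69, adjusted p = 3.91e-06), CD68 (-1.41, adjusted p = 3.87e-05) and the ficolin gene FCN1 (-0.54, adjusted p = 0.00929) were lower than in GFP cells (9.27% of all genes). The arrays of 4 markers lay wholly lower in that comparison (18.1% of all genes) and those of 2, LYZ and CX3CR1, wholly higher (19.2%). The list median was -0.033, against 0.05 over all genes. CSF1R, the receptor of macrophage colony-stimulating factor, was at 0.33 with induction (adjusted p = 0.167) and 0.02 for induced RhoH against GFP (adjusted p = 0.959). The deposited values carry no detection calls, so no marker can be called absent, and the part of monocyte-like cells in the CD14 values was not tested.

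The promyelocytic character of the line was seen in its granule genes. Of 7 promyelocyte markers 5 were measured, and their mean log2 value per array was 11.65 to 11.85 in induced RhoH, 12.06 to 12.09 in uninduced RhoH and 10.52 to 10.54 in GFP cells. All 5 (AZU1, CTSG, MPO, MYB and PRTN3) were higher in RhoH than in GFP cells, with 4-OHT (1.74% of all genes) and without it (6.01% of all genes), the opposite side to CD14. With induction the arrays of 3 of the 5 lay wholly lower (5.64% of all genes), and the list median was -0.26. Only CTSG was called lower there (-0.83, limma adjusted p = 0.00703, 0.751% of all genes), and that call was lost in 2 of 18 alternatives. MPO, the myeloperoxidase gene, was at 13.12 ± 0.06 in induced RhoH, 13.39 ± 0.03 in uninduced RhoH and 12.20 ± 0.06 in GFP cells (SD, n = 3 each), a difference of 0.93 for induced RhoH against GFP (limma adjusted p = 0.000157). For MYB the call for induced RhoH against GFP (0.57, adjusted p = 0.0218) was lost without any GFP array or without induced RhoH replicate 1 or 2 (adjusted p up to 0.105). The part of this difference between the populations in the CD14 values was not tested. Of 9 B cell markers 5 were measured, and 0 passed limma in any comparison (0 with induction, 1 for induced RhoH against GFP and 2 for uninduced RhoH against GFP at an unadjusted p under 0.05). Over all genes 3.78%, 4.49% and 15.3% passed limma in the same order of comparisons. The B cell markers' mean log2 value per array was 5.044 to 5.226 in induced RhoH, 5.11 to 5.253 in uninduced RhoH and 4.892 to 5.036 in GFP cells. Induced and uninduced RhoH overlapped in it, and both lay wholly above GFP cells. CD180 was at 0.46 for induced RhoH against GFP and at -0.17 for uninduced RhoH against GFP, and the part of B cell markers in the CD180 values was not tested. Of 7 dendritic cell markers 3 were measured, and 1, FLT3, was higher in induced RhoH than in GFP cells (1.00, adjusted p = 0.00606), where 1.74% of all genes were. In the same comparison CD1C was at 0.18 (adjusted p = 0.702) and XCR1 at 0.0065 (adjusted p = 0.985). With induction FLT3 was at 0.01 (adjusted p = 0.993). Of 8 eosinophil markers 3 were measured, and 2 were higher in induced RhoH than in GFP cells (1.74% of all genes). They were EPX, the eosinophil peroxidase gene (1.99, adjusted p = 0.000266), and CLC (1.55, adjusted p = 0.0266). The call of CLC was lost in 5 of 18 alternatives, among them the omission of any GFP array (adjusted p up to 0.117). SIGLEC8 was at 0.13 (adjusted p = 0.767). None of the 3 passed with induction, where EPX was at -0.75 (adjusted p = 0.056) with its arrays wholly lower (5.64% of all genes).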

How the data were processed

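RNA of 9 samples was measured on Affymetrix arrays, 3 in each of 3 groups taken from the sample titles. The table the authors deposited holds log2 values of 43550 probe sets. The submitters' processing notes name RMA, Affymetrix Power Tools and limma; which versions were run is not given in the sources used here. No genome build is given for the values. No 2 arrays were identical. The platform annotation gave 1 symbol for 15659 probe sets and none for 27891, and all 15659 matched RefSeq (GRCh38.p14). The brightest probe set of each gene left 14778 genes, with no filter on low values.

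Groups were compared with limma 3.58.1 in R 4.3.3 on the deposited log2 values, fitting the mean of each of the 3 groups on all 9 arrays with its usual variance moderation (6 residual and 3.86 prior degrees of freedom) and Benjamini-Hochberg adjustment over the 14778 genes at 0.05; the fit was tested on simulated data. Errors are SD over 3 arrays or the SE of the fit. As the replicate cultures are not described, p-values measure the spread between these samples. The number of arrays limits the precision. The members, the 13 lists and the alternatives were chosen with earlier results of these data known. Genes named are the members, RHOH, TLR4, LY86, up to 4 called genes per list and comparison, other called pathway genes whose groups do not overlap, and the 5 genes closest to each member; list members named without a call, TLR9 and NRROS were picked after their values were seen. 18 alternatives were run (other scalings, filters, weights, a block, arrays left out).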

Additional observations from a re-analysis of the deposited data

How the results depend on the processing

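Of 126 recomputed fold changes of LY96, CD14 and CD180, 124 moved by less than the spread within groups. Leaving out an array of the group not compared cannot move a fold change, so part of the 124 was fixed in advance. The exceptions, both for induced against uninduced RhoH, were LY96 at 1.67 without both replicate 1 arrays and CD180 at 0.43 with array weights. Over single arrays left out, induction gave 1.77 to 2.18 for LY96, -0.0073 to 0.35 for CD14 and 0.47 to 0.77 for CD180. Induced RhoH against GFP gave 0.93 to 1.34, -1.53 to -1.12 and 0.29 to 0.60 for the same 3 genes, and uninduced RhoH against GFP -0.94 to -0.74, -1.65 to -1.36 and -0.23 to -0.12. No called gene named here changed sign in any alternative.

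Counts depended more on the setting, and the causes were not tested. With induction 558 genes passed (447 higher, 111 lower), but 953 (588 higher, 365 lower) after quantile normalization again, 950 (562 higher, 388 lower) with array weights, 190 (182 higher, 8 lower) with only the 6 arrays compared, and 304 to 666 without 1 array. Against GFP, 664 genes for induced RhoH became 1176 with array weights and 279 to 861 without 1 array, and 2258 for uninduced RhoH became 4326 and 1450 to 2670. Pathway calls with induction (9) were 5 with all probe sets tested, 13 with array weights and 5 to 8 without 1 array. For induced RhoH against GFP (13) they were 8, 18 and 6 to 13 under the same settings, and for uninduced RhoH against GFP (28) 23, 33 and 18 to 30. Uncalled differences near 0 changed sign. LY86 with induction was at 0.11 without both replicate 1 arrays, 0.047 with array weights and -0.12 to 0.13 without 1 array, for induced RhoH against GFP at -0.098 to 0.021 without 1 array, and for uninduced RhoH against GFP at -0.18 to 0.071. TLR4 with induction was at -0.0075 with array weights and -0.0040 to 0.18 without 1 array, for induced RhoH against GFP at -0.032 to 0.15, and for uninduced RhoH against GFP at -0.086 to 0.066, with 0.059 after quantile normalization, 0.066 without both replicate 1 arrays and 0.039 with array weights.

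Same-numbered arrays did not pair in all groups: their deviations from the group means correlated between -0.026 and 0.543, and 5 of the 9 arrays correlated best with one of their own number. With the replicate block 684 genes passed with induction, 820 for induced RhoH and 2558 for uninduced RhoH against GFP, with 7, 15 and 30 pathway genes, and the induction calls of UNC93B1 and TRAF3 were lost. Averaging the probe sets of a gene was not run, as each member has 1.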
